A study of Mus musculus with 12 samples.

Results

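Mueller glia are the radial support cells of the retina, and 9 genes of their housekeeping work were followed here through parental mice and reciprocal hybrids: Glul, Slc1a3, Kcnj10, Aqp4, Apoe, Clu, Vim, Sox9 and Dkk3. They were chosen by gene symbol, and each symbol matched exactly 1 of the 37991 genes in the deposited tables. All 9 are protein-coding genes on autosomes. The mice were F0 C57BL/6J, the standard reference inbred strain, F0 Cast/EiJ, a wild-derived inbred strain, and their reciprocal hybrids, F1 B6xCast (father C57BL/6J, mother Cast/EiJ) and F1 CastxB6 (father Cast/EiJ, mother C57BL/6J). Each of the 4 groups has 3 libraries, every library is a pool of 6 to 8 whole retinas, and all mice were males aged 8 weeks. Because whole retina was sequenced, fewer Mueller glia and less RNA per Mueller cell cannot be told apart where levels of different mice are compared. The alleles of an F1 library come from the same cells.

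Mueller glia span the retina from the photoreceptor layer to the vitreous and keep its extracellular fluid stable. They take up glutamate that neurons release and turn it into glutamine, carry potassium and water away from active synapses, and supply lipoproteins. A hybrid cell carries a copy of each gene from either strain. A difference between the copies is attributed to regulation in cis, and what remains of the parental difference once it is subtracted is called the trans component. The comparisons therefore ask whether a strain difference in a glial gene persists between its 2 alleles.

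Expression was given by the authors as count equivalents, which are read numbers estimated per gene and already scaled between libraries, as FPKM, which also divides by transcript length, and as unique hits, which are integer counts of read pairs that map to 1 gene (in F1, to 1 allele of it). Unique hits per library ran from 8158534 to 12363291 and set the depth. Differences below are log2 of count equivalents plus 1, tested with limma across all genes, and "changed", "rose" or "fell" marks an adjusted p under 0.05. Over all 12 libraries, 16 known Mueller glia markers beside the genes followed here had mean levels from 0.782 to 224 FPKM. The highest were Slc6a6, a taurine transporter (224), and Rlbp1, a retinoid-binding protein (91.9). The rest ran from 37.15 (Prdx6) down to 0.782 (Hepacam).

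Among the 9 genes, a drop of Glul, Vim and Clu in Cast/EiJ was seen between the strains and again between the alleles, and Aqp4 rose in both. The promoter windows of Glul and Vim are shown because, of the genes with a listed window, this pair passed the test in the same direction in both comparisons. The windows come from RefSeq on GRCm38.p6, 250 bases before to 50 after the annotated start, and are of the C57BL/6J reference genome, so they show no Cast/EiJ allele. Windows were listed for 5 of the 9 genes (Glul, Vim, Apoe, Slc1a3 and Kcnj10). Capitals mark CCAAT on either strand (ATTGG where it is read on the other strand). The Glul window lies at chr1:153899679-153899978 and the Vim window at chr2:13574061-13574360, both on the + strand.
Glul: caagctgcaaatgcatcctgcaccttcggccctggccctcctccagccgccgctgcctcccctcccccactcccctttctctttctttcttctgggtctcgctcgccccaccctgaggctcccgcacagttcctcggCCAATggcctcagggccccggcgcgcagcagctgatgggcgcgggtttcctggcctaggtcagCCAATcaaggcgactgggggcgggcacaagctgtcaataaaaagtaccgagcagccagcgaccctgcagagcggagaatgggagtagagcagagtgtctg
Vim: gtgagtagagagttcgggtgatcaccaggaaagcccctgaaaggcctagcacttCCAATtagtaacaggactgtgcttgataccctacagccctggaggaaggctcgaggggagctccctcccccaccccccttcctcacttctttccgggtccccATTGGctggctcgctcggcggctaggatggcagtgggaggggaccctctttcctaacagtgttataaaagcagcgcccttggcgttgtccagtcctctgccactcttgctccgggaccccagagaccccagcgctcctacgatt
Each window holds 2 copies of CCAAT, at 113 and 50 bases before the start in Glul and at 196 and 94 in Vim, and the copies do not overlap. Of 32851 windows of this length, 37.4% hold CCAAT and 11.5% hold 2 or more. The letters TATAAA, searched on both strands, occur once in the Vim window and not in the Glul window, and in 13.6% of all windows. These are matches of letters, not binding sites.

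The 9 genes covered a wide range of levels. On the FPKM scale, with the alleles of an F1 library averaged, Glul had the highest mean, 655 ± 62.9 (SD, n = 12), followed by Apoe at 233 ± 25.4, Clu at 169 ± 22.2, Dkk3 at 126 ± 5.89, Vim at 49.7 ± 7.39, Slc1a3 at 29.6 ± 2.66, Aqp4 at 15.3 ± 1.84, Kcnj10 at 11.1 ± 0.982 and Sox9 at 3.37 ± 0.538. Every neighbour in this order was higher than the next in 12 of 12 libraries. The ranges of Apoe (191 to 279) and Clu (143 to 216) overlapped, as did those of Aqp4 (12.0 to 18.03) and Kcnj10 (10.02 to 13.2). Glul ranked 27 among 34964 autosomal genes, and Sox9, a transcription factor of glia, ranked 9454. Dkk3 was the steadiest over the 12 libraries, with a coefficient of variation of 4.68%, and Sox9 the least steady at 15.9%.

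**Figure D1:**
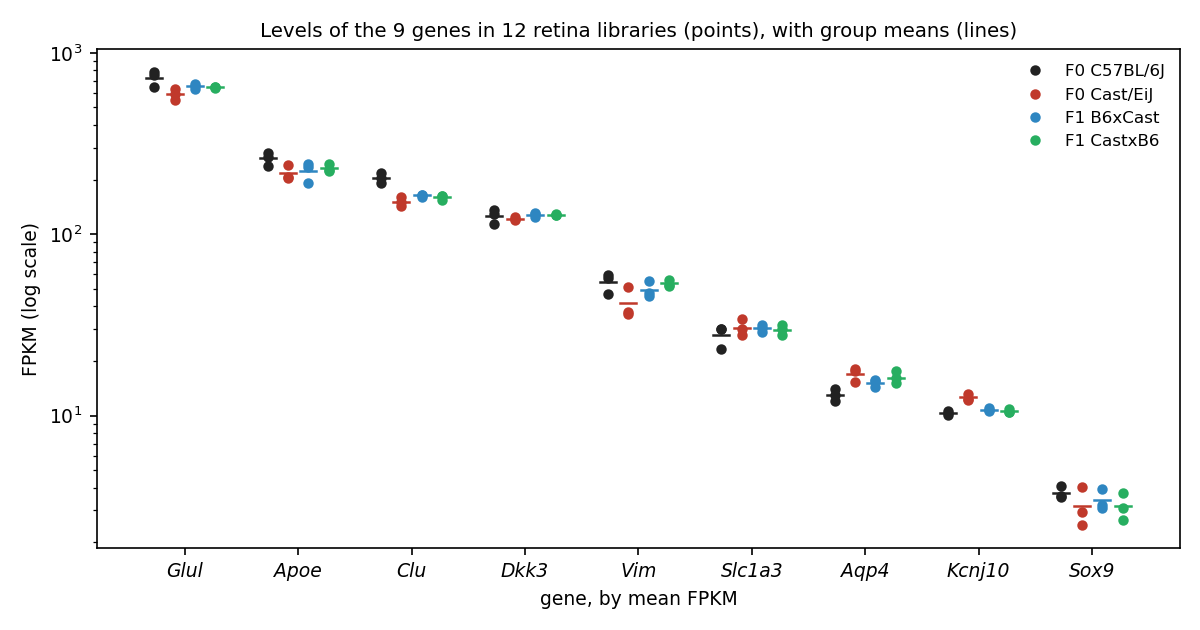
FPKM on a log axis for each gene and library, points by group (n = 3 each), lines for group means. The order of the genes is the same in every library, from Glul with a mean of 655 to Sox9 with 3.37.

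The F0 libraries were not level for these genes. In F0 C57BL/6J replicate 1, 8 of the 9 genes had the lowest count equivalents of their group, the exception being Sox9, which was highest there. In F0 Cast/EiJ replicate 3, 7 of 9 were the highest of their group. Each result that rests on these libraries is given below also without them where the call changes.

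Between the F0 strains, Vim, Clu, Glul and Apoe were lower and Aqp4 higher in Cast/EiJ, while Slc1a3, Kcnj10, Sox9 and Dkk3 did not pass the test. That is 5 of 9 genes called, against 33.8% of the 14452 genes tested, and 4 of 9 lower in Cast/EiJ, against 16.6% of all genes. The median log2 difference of the 9 was -0.25, beside 0.03 for all genes. The strains did not overlap for 5 of the 9, against 48.0% of all genes tested. With no filter on low values, Clu alone passed of the 9.

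Glul encodes glutamine synthetase, which makes glutamine from glutamate and ammonia, and lies on chromosome 1 at 155747074 to 155756853 (NCBI37, + strand). Its count equivalents were 33200, 39200 and 40500 in F0 C57BL/6J and 28000, 29900 and 32700 in F0 Cast/EiJ. The groups did not overlap, although the highest Cast/EiJ library lay just under the lowest C57BL/6J library. The log2 difference was -0.32 ± 0.10 (SE, limma, adjusted p = 0.0418), so that the level fell by 19.6%. The call was lost without F0 C57BL/6J replicate 2 or 3 (-0.28 and -0.26) or without any 1 of the F0 Cast/EiJ replicates (-0.26, -0.31 and -0.37), with adjusted p from 0.0509 to 0.135, and on the deposited log expression (-0.30, adjusted p = 0.147). A gene with 4.12 FPKM, A930039A15Rik, overlaps Glul on the same strand, and the libraries carry no strand.

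Slc1a3, the glutamate transporter GLAST that brings glutamate into the cell (chromosome 15, 8584124 to 8660764, - strand), had 1770, 2250 and 2310 count equivalents in F0 C57BL/6J and 2160, 2240 and 2510 in F0 Cast/EiJ. The groups overlapped. The difference was 0.13 ± 0.11 (95% interval -0.11 to 0.38, adjusted p = 0.377 by limma).

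Aqp4 encodes the water channel aquaporin 4 of the glial endfeet (chromosome 18, 15547903 to 15562193, - strand). It had 1170, 1280 and 1360 count equivalents in F0 C57BL/6J and 1710, 1500 and 1760 in F0 Cast/EiJ. All Cast/EiJ libraries lay above all C57BL/6J libraries. The difference was 0.38 ± 0.09 (limma, adjusted p = 0.00977), or 30.4% more. It was the 1 gene of the 9 that rose.

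Kcnj10 encodes Kir4.1, the inward rectifier potassium channel that shares the endfoot with Aqp4 (chromosome 1, 174271341 to 174304216, + strand). Its count equivalents were 873, 1100 and 1060 in F0 C57BL/6J and 1180, 1040 and 1370 in F0 Cast/EiJ, which overlap. The difference of 0.24 ± 0.12 did not pass (limma, adjusted p = 0.156). On the FPKM scale the groups were apart, 10.02 to 10.6 against 12.2 to 13.2, and the same gene passed on the deposited log expression (0.29, limma, adjusted p = 0.0253) and with edgeR on unique hits (0.27, adjusted p = 0.0176). The direction was the same on every scale, and the call was not.

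Apoe, the lipoprotein that carries cholesterol between retinal cells (chromosome 7, 20281458 to 20284515, - strand), had 4280, 4660 and 4820 count equivalents in F0 C57BL/6J and 3770, 3610 and 4210 in F0 Cast/EiJ. The groups did not overlap. The difference was -0.25 ± 0.08 (limma, adjusted p = 0.0398), so that the level fell by 15.8%. The call was lost without F0 C57BL/6J replicate 2 or 3 or F0 Cast/EiJ replicate 1 or 2 (-0.20 to -0.24, adjusted p from 0.0951 to 0.136), and on the deposited log expression (-0.27, adjusted p = 0.104).

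Clu encodes clusterin, a secreted chaperone and lipoprotein also called apolipoprotein J (chromosome 14, 66587320 to 66600385, + strand). It had 6100, 6640 and 7040 count equivalents in F0 C57BL/6J and 4930, 4680 and 4910 in F0 Cast/EiJ. Every Cast/EiJ library was below every C57BL/6J library. The difference was -0.44 ± 0.07 (limma, adjusted p = 0.00171), so that the level fell by 26.5%.

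Vim encodes vimentin, the intermediate filament of Mueller glia, which astrocytes and vessels also express (chromosome 2, 13495554 to 13504453, + strand). Its count equivalents were 1350, 1690 and 1770 in F0 C57BL/6J and 924, 1000 and 1160 in F0 Cast/EiJ, again without overlap. The difference of -0.64 ± 0.12 was the largest of the 9 (limma, adjusted p = 0.00385), and the level fell by 35.7%. On the deposited log expression it was -0.40 and did not pass (limma, adjusted p = 0.0926), and the difference of Clu was larger there (-0.43).

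Sox9 lies on chromosome 11 (112643538 to 112649074, + strand) and Dkk3, a secreted relative of the Wnt antagonists of the Dickkopf family, on chromosome 7 (119259533 to 119302571, - strand). Sox9 had 320, 285 and 281 count equivalents in F0 C57BL/6J and 316, 197 and 201 in F0 Cast/EiJ, with replicate 1 high in both. Its difference of -0.34 ± 0.18 did not pass (limma, adjusted p = 0.169), and without F0 Cast/EiJ replicate 1 it was -0.56 and passed (adjusted p = 0.00903). Dkk3 had 7140, 8220 and 8580 in F0 C57BL/6J and 7580, 7720 and 7950 in F0 Cast/EiJ, and its difference was -0.04 ± 0.08 (95% interval -0.22 to 0.14, limma, adjusted p = 0.746).

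Markers of other cells differed between the same F0 libraries. For the counts below, 2486 of all 14452 genes tested between strains rose and 2401 (16.6%) fell. Summed FPKM of 6 microglia markers was 7.47 to 8.31 in F0 C57BL/6J and 3.66 to 4.50 in F0 Cast/EiJ, and 3 of 6 fell. The 5 astrocyte markers summed to 11.3 to 11.7 and 7.66 to 10.2 (2 of 5 fell), with a median log2 difference of -0.06. Gfap (-0.49) and Aldh1l1 (-2.22) fell, while Pax2 (-0.06), S100b (0.43) and Gja1 (0.42) did not pass. The 8 markers of retinal pigment epithelium summed to 7.09 to 8.71 and 3.10 to 4.05 (1 of 4 tested fell). Cone markers (406 to 480 and 296 to 355, 2 of 4 tested fell) and ganglion cell markers (241 to 272 and 185 to 205.5, 3 of 6 fell) were also lower in F0 Cast/EiJ. Amacrine cell markers were higher there (117 to 149 and 161 to 185, 4 of 6 rose). The sum of bipolar cell markers was higher too (206 to 227 and 251 to 275), with a median log2 difference of -0.15 over the list. Of these 6, 2 rose and 1 fell. Cabp5 rose by 1.34 and Grik1 by 0.36, Grm6 fell (-0.24), and Trpm1 (-0.22), Isl1 (-0.08) and Prkca (-0.22) did not pass. The sums of horizontal cell markers (15.49 to 19.9 and 13.3 to 15.55), lens markers (0.394 to 10.2 and 3.35 to 9.68) and blood markers (47.2 to 64.45 and 35.1 to 56.3) overlapped. The 6 vessel markers summed to 31.5 to 40.7 and 32.7 to 42.2, which overlap (1 rose and 2 fell). For scale, 7 rod markers summed to 14860 to 15060 and 13680 to 14530, and the 9 genes to 1285 to 1531 and 1131 to 1265. What part these cells had in the differences of Vim, Apoe and Clu was not tested.

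The alleles of the hybrids were compared next, with both alleles of a library in 1 model and the F0 strains beside them. Of the 9 genes, 6 differed between alleles, against 47.0% of the 13414 genes tested. The Cast/EiJ allele was lower for Dkk3, Vim, Glul and Clu, which is 4 of 9 against 23.5% of all genes, and higher for Aqp4 and Apoe. The 6 C57BL/6J allele values and the 6 Cast/EiJ allele values did not overlap for 5 genes (Glul, Aqp4, Vim, Clu and Dkk3), against 25.5% of all genes. The median log2 difference over the 9 was -0.12, beside 0.00 for all genes.

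**Figure D2:**
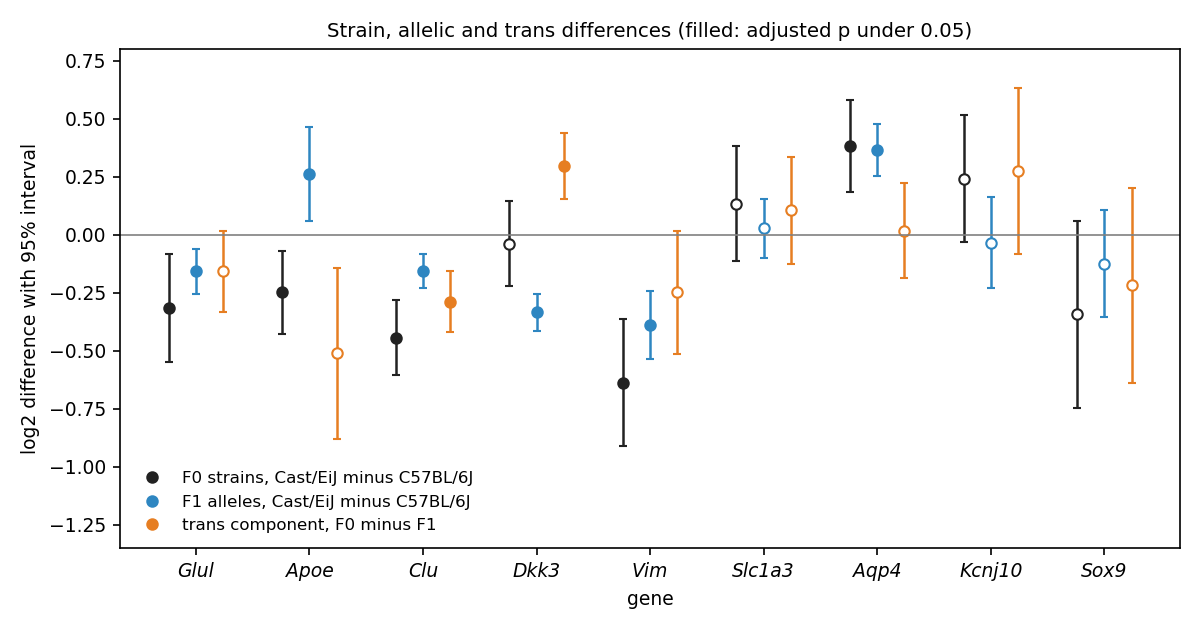
Log2 differences of each gene with 95% intervals from limma, for the F0 strains, the F1 alleles and the trans component, with filled points at an adjusted p under 0.05. Vim has the lowest F0 value (-0.64), Dkk3 differs between alleles (-0.33) and not between strains (-0.04), and the Apoe values lie on opposite sides of 0 (-0.25 and 0.26).

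Dkk3 had the smallest adjusted p of the 9 between alleles. Its C57BL/6J allele ran from 8380 to 9030 count equivalents and its Cast/EiJ allele from 6890 to 7280 (n = 6 libraries each). The Cast/EiJ allele was lower in 6 of 6 libraries, by -0.33 ± 0.04 (SE, limma, adjusted p = 1.25e-06). Unique hits gave 28530 reads for the C57BL/6J allele and 22203 for the Cast/EiJ allele, so that the Cast/EiJ share was 43.8% ± 0.873 (SD, n = 6).

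Vim followed the same direction. The C57BL/6J allele had 1330 to 1780 count equivalents and the Cast/EiJ allele 1090 to 1310, the latter lower in 6 of 6 libraries and by -0.39 ± 0.07 (limma, adjusted p = 1.90e-04). Of its unique hits, 42.4% ± 1.31 (SD, n = 6) were from Cast/EiJ.

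Glul and Clu had smaller and more even allelic differences. Glul alleles lay at 33500 to 35700 (C57BL/6J) and 30000 to 32500 (Cast/EiJ), with per-library log2 ratios within -0.17 to -0.14. The mean difference was -0.16 ± 0.05 (limma, adjusted p = 0.00888). Clu alleles lay at 5190 to 5610 and 4710 to 4950, and differed by -0.16 ± 0.03 (limma, adjusted p = 0.00128). Glul also had the most allele-specific reads of the 9, with 128788 and 111632 unique hits over the 6 libraries.

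Aqp4 was higher from the Cast/EiJ allele in 6 of 6 libraries, 1160 to 1480 count equivalents against 1580 to 1860, by 0.37 ± 0.05 (limma, adjusted p = 2.61e-05). This is close to its difference between the strains, 0.38.

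The direction of Apoe between alleles was opposite to that between strains. By count equivalents its C57BL/6J allele ran from 3060 to 4570 and its Cast/EiJ allele from 3770 to 5160, which overlap. The log2 ratio per library scattered from -0.07 to 0.75, the Cast/EiJ allele being higher in 4 of 6 libraries, and the difference was 0.26 ± 0.10 (limma, adjusted p = 0.0332). The call was lost without F1 B6xCast replicate 2 (0.14, adjusted p = 0.228), F1 CastxB6 replicate 1 (0.16, adjusted p = 0.207) or F1 CastxB6 replicate 3 (0.28, adjusted p = 0.0642). It was also lost on the deposited log expression (0.33, adjusted p = 0.0636) and with no filter on low values (0.26, adjusted p = 0.0564).

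The unique hits of Apoe were far tighter. The Cast/EiJ share of allele-specific reads was 53.7% ± 0.381 (SD, n = 6), above 50% in 6 of 6 libraries, with log2 ratios from 0.19 to 0.25. edgeR on these counts gave 0.21 (adjusted p = 6.83e-04). The deposited posterior SD of the log expression for Apoe alleles went up to 0.269, against at most 0.0246 in its F0 libraries. It was 0.205 to 0.269 in the libraries with a ratio of -0.07 (F1 B6xCast replicate 3 and F1 CastxB6 replicate 2), and 0.0685 to 0.114 in those with 0.75 and 0.66 (F1 B6xCast replicate 2 and F1 CastxB6 replicate 1). In F1 CastxB6 replicate 3 it was 0.228 and 0.248 with a ratio of 0.20, and in F1 B6xCast replicate 1 0.137 and 0.150 with 0.11. The part of the posterior SD in the scatter was not tested.

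**Figure D3:**
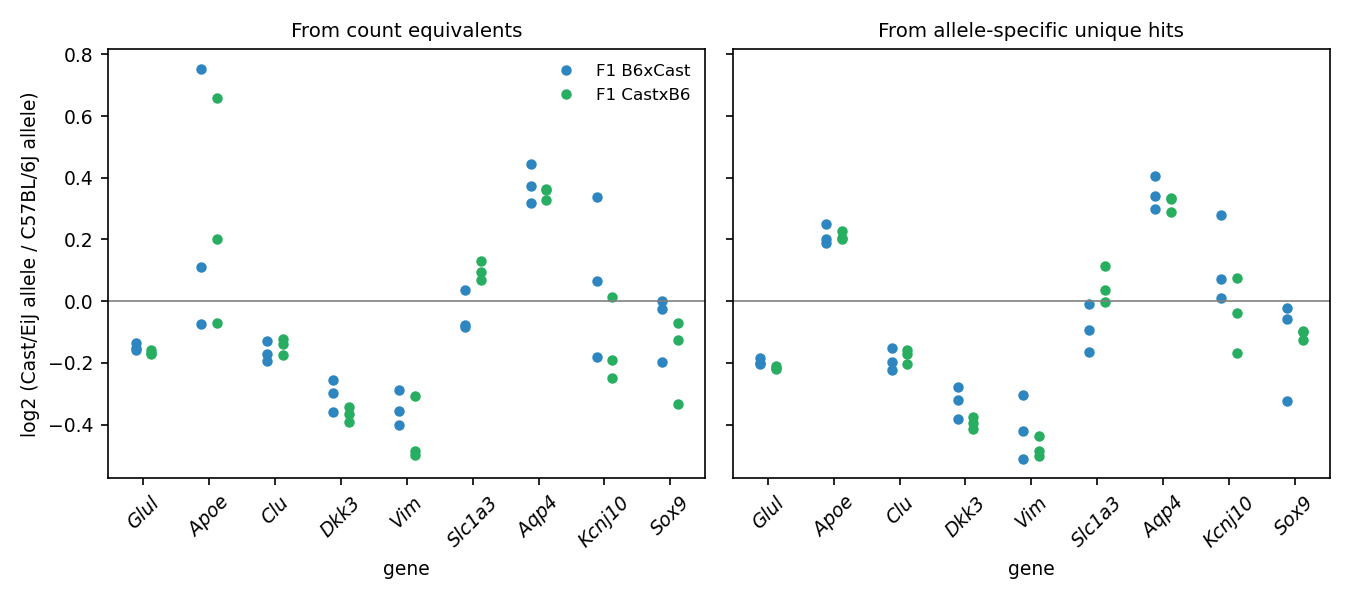
Allelic ratio on the log2 scale, Cast/EiJ over C57BL/6J, in each of 6 F1 libraries, from count equivalents (left) and from unique hits (right), points by cross. Apoe scatters from -0.07 to 0.75 on the left and lies between 0.19 and 0.25 on the right, while Glul stays within -0.17 to -0.14 on the left.

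The other genes did not pass. Slc1a3 alleles differed by 0.03 ± 0.06 (95% interval -0.10 to 0.15), Kcnj10 by -0.03 ± 0.09 (-0.23 to 0.16) and Sox9 by -0.12 ± 0.11 (-0.36 to 0.11). Kcnj10 and Sox9 rested on few allele-specific reads, a mean of 334 and 333 per library, against 8456 for Dkk3. Kcnj10 changed sign on the deposited log expression (0.11) and on unique hits with edgeR (0.043), and Slc1a3 changed sign on unique hits with edgeR (-0.021).

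The trans component, the F0 strain difference minus the F1 allelic difference, passed for Clu and Dkk3, 2 of 9 genes against 14.0% of the 13414 genes tested. For Clu it was -0.29 ± 0.06 (95% interval -0.42 to -0.16, limma, adjusted p = 0.00508), so that the strain difference of -0.44 was larger than the allelic -0.16. With DESeq2 on unique hits it was -0.24 and missed the threshold (adjusted p = 0.0561). In count equivalents, the Cast/EiJ allele averaged 4837 ± 89.4 (SD, n = 6) in hybrids and 4840 ± 139 (n = 3) in F0 Cast/EiJ. The C57BL/6J allele averaged 5390 ± 163 in hybrids and 6593 ± 472 in F0 C57BL/6J.

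For Dkk3 the trans component was 0.30 ± 0.07 (95% interval 0.15 to 0.44, limma, adjusted p = 0.00742), opposite in sign to its allelic difference of -0.33. The C57BL/6J allele averaged 8870 ± 244 (n = 6) in hybrids against 7980 ± 749 (n = 3) in F0 C57BL/6J, and the Cast/EiJ allele 7032 ± 138 against 7750 ± 187 in F0 Cast/EiJ. Dkk3 therefore differed between alleles and passed no test between strains.

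Apoe had the largest trans component by size, -0.51 ± 0.18, and missed the threshold (limma, adjusted p = 0.0625). With edgeR on unique hits it was -0.44 (adjusted p = 3.96e-04), and it passed without F1 B6xCast replicate 1 (-0.55) or 3 (-0.60) or F1 CastxB6 replicate 2 (-0.60). Vim (-0.25), Glul (-0.16), Kcnj10 (0.28), Sox9 (-0.22), Slc1a3 (0.11) and Aqp4 (0.02, 95% interval -0.19 to 0.22) did not pass. That of Vim was 0.090 on the deposited log expression, opposite in sign. Without F0 C57BL/6J replicate 1, the library in which 8 of the 9 genes were lowest, Glul (-0.25, adjusted p = 0.0304) and Vim (-0.37, adjusted p = 0.0499) passed too (limma).

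**Figure D4:**
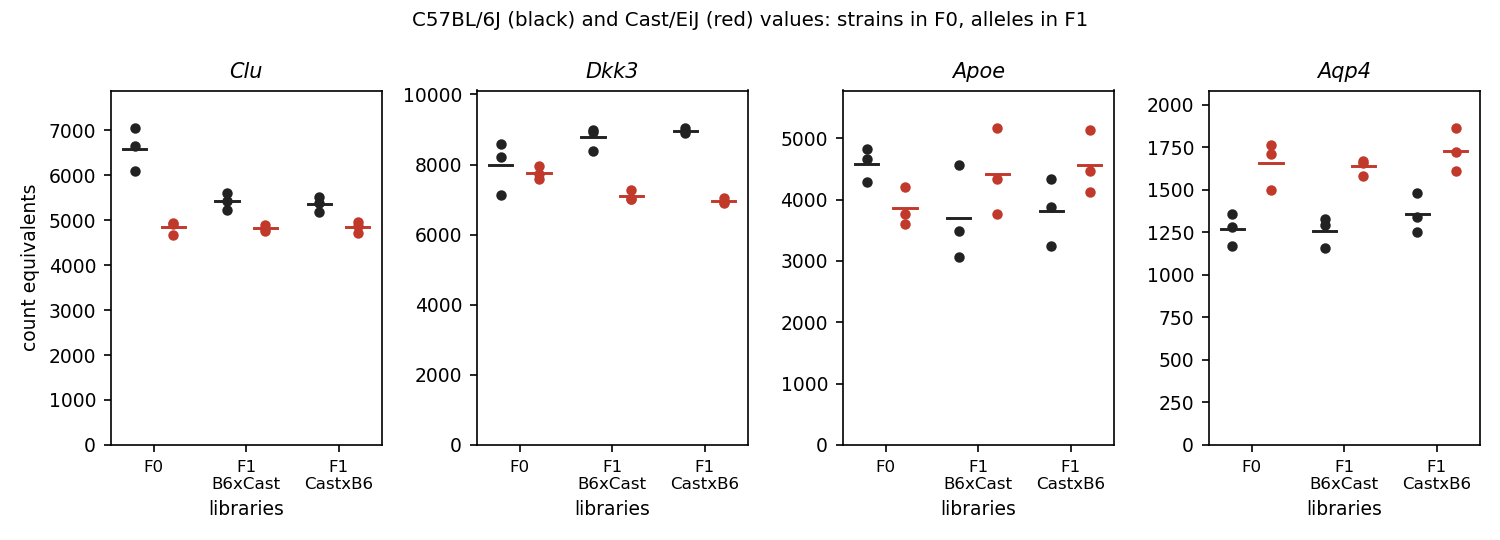
Count equivalents per library (points) with means (lines) for Clu, Dkk3, Apoe and Aqp4, with F0 strains at the left and F1 alleles by cross at the right, C57BL/6J in black and Cast/EiJ in red. For Clu the C57BL/6J value is 6593 in F0 and 5390 in F1, and for Dkk3 the 2 alleles lie apart in F1 where the strains overlap in F0.

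Parent of origin was examined as the maternal minus the paternal allele. None of the 9 genes passed limma (0 at an unadjusted p under 0.05 as well), against 0.492% of all genes, and the values ran from -0.07 (Slc1a3) to 0.11 (Kcnj10). edgeR and DESeq2 on unique hits also called 0. Total expression of the reciprocal hybrids, F1 CastxB6 minus F1 B6xCast, gave 0 of 9 by limma and by edgeR (0 at an unadjusted p under 0.05 by limma), against 0.0816% of all genes, with values from -0.14 (Sox9) to 0.13 (Vim).

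The hybrid total was then set against the mean of the parents. F1 libraries were read on 2 lanes and mapped to a hybrid transcriptome, F0 libraries on 1 lane and to a strain transcriptome, and these steps cannot be told apart from being a hybrid. Clu was lower in hybrids, by -0.14 ± 0.04 (limma, adjusted p = 0.0331), and was 1 of 9 called, against 12.2% of all genes. Its F1 totals were 4995, 5255 and 5115 count equivalents in F1 B6xCast and 5195, 5170 and 4950 in F1 CastxB6, between the F0 groups in every library. The call held in limma without F0 C57BL/6J replicate 1 or F0 Cast/EiJ replicate 2, and was lost without each of the other 10 libraries in turn (-0.12 to -0.15). The highest of the other values was 0.15, for Vim, and did not pass (adjusted p = 0.261).

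The 9 genes belong to pathways with other members, which were read from 7 lists of 68 glial genes. Between the F0 strains 56 of them were tested, and 8 rose, 16 fell and 32 did not pass, with a median log2 difference of 0.00 beside 0.03 for all genes. Of all genes, 33.8% passed and 16.6% fell. Between alleles 51 were tested, and 14 were higher from Cast/EiJ, 15 were lower and 22 did not pass, against 47.0% of all genes that passed. The trans component passed for 10 of 51, 1 positive and 9 negative, against 14.0% of all genes. Over all 13414 genes tested it was called positive in 757 and negative in 1115. Of 18 that passed in both the F0 and the allelic comparison, 17 changed in the same direction. The share of all genes that do so is not given here, so the count marks no trait of these lists. The exception, named after its values were seen, was Gfap, the filament of reactive glia. It was at -0.49 between strains and 0.44 between alleles (trans component -0.93, limma, adjusted p = 0.0149). Gfap also counts as an astrocyte marker.

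**Figure D5:**
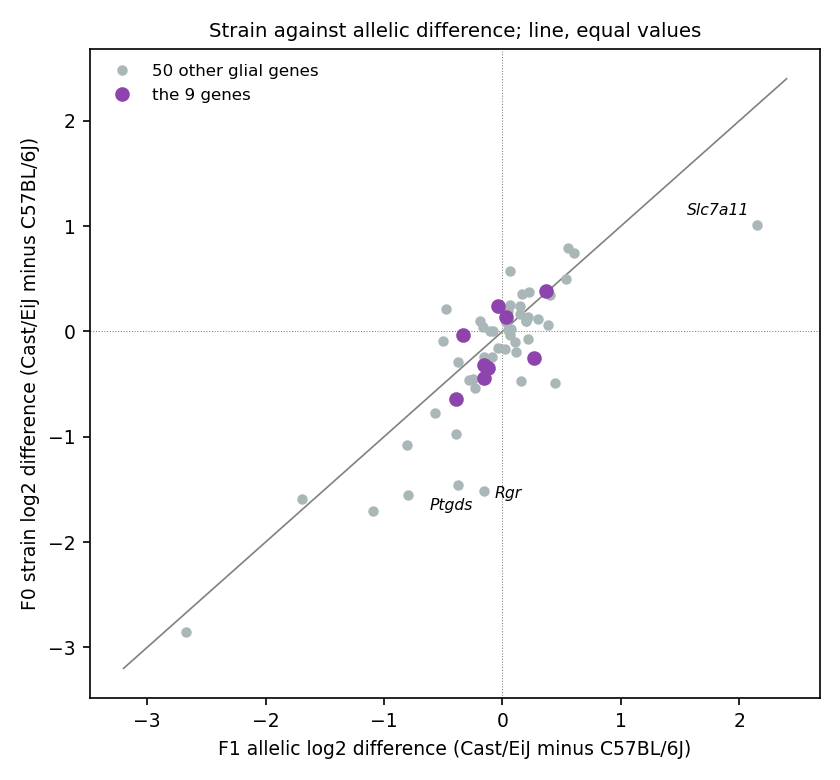
F0 strain log2 difference against F1 allelic log2 difference for the 9 genes (purple) and 50 other glial genes tested in both (grey), with the line of equal values. The height of a point above the line is its trans component, which passed with a size of at least 1 in the 3 genes labelled, Slc7a11 (-1.15), Ptgds (-1.09) and Rgr (-1.36).

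In the transmitter list (9 genes, 8 tested between strains) 2 rose and 1 fell. Of all genes, 33.8% passed between strains and 47.0% between alleles, which holds for each list below. Slc7a11, the cystine-glutamate exchanger, had 61.5, 61.7 and 61.0 count equivalents in F0 C57BL/6J and 154, 107 and 117 in F0 Cast/EiJ. It rose by 1.01 between strains and 2.15 between alleles, with a trans component of -1.15 (limma, adjusted p = 0.00193). In the list of potassium, water and pH genes (11, 9 tested) 1 rose and 2 fell, and Aqp1, a water channel, fell by 0.97 between strains and by 0.39 between alleles (limma, adjusted p = 0.00128 and 6.06e-04). Its libraries were 1430, 2030 and 1810 in F0 C57BL/6J against 782, 834 and 1070 in F0 Cast/EiJ.

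The lipid list (8 genes, 6 tested) had 4 that fell and none that rose, against 16.6% of all genes that fell. Between alleles 3 of 6 were lower and 1 higher from Cast/EiJ, the latter being the sterol exporter Abcg1 (0.39, limma, adjusted p = 1.09e-08), named after its values were seen. Lpl, lipoprotein lipase, fell by 1.59 between strains (189, 245 and 246 against 78.9, 75.3 and 68.3) and by 1.69 between alleles. Nr1h3, the sterol-sensing receptor LXR alpha, fell by 1.71 and 1.10 (52.2, 47.2 and 40.5 against 12.7, 10.2 and 18.8). Of 10 glial transcription factors tested, 1 rose, and it was Sox8, a relative of Sox9, by 0.50 between strains (limma, adjusted p = 0.00427) and 0.53 between alleles. Of 2 Wnt antagonists tested between strains, Sfrp1 fell by 1.08 (28.5, 38.9 and 41.2 against 13.3, 17.8 and 18.6) and by 0.81 between alleles.

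Among intermediate filaments, the list of Vim's relatives (5, all tested), 3 fell between strains and none rose, against 16.6% of all genes that fell. Between alleles 4 were tested, of which Synm and Nes were lower from Cast/EiJ, and Gfap (0.44) and the nuclear lamin gene Lmna (0.22, limma, adjusted p = 0.0319), named after its values were seen, were higher. Synm, synemin, which pairs with vimentin in filaments, fell by 2.85 (749, 915 and 964 against 112, 134 and 114) and by 2.67 between alleles (limma, adjusted p = 4.70e-07 and 1.07e-13). Nes, nestin, fell by 1.56 and 0.80. Of 16 other Mueller glia markers, 4 rose and 5 fell, against 33.8% of all genes that passed and 16.6% that fell. Ptgds, a prostaglandin synthase, fell by 1.46 (181, 199 and 232 against 81.9, 71.3 and 67.4), with -0.37 between alleles that did not pass (limma, adjusted p = 0.0624) and a trans component of -1.09 (adjusted p = 0.0175). Rgr, a retinal opsin, fell by 1.52 (66.2, 81.2 and 77.1 against 21.0, 19.5 and 39.7), with -0.15 between alleles (limma, adjusted p = 0.621) and a trans component of -1.36 (adjusted p = 0.0409). Ptgds and Rgr are also expressed in retinal pigment epithelium, whose markers are given above.

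For each gene the most similar autosomal gene outside the 9 was sought over 12 libraries among 12151 genes, by Pearson's r of log2(FPKM + 0.1), as a description with no test, since the libraries share groups and depth. These were Efemp1 for Glul (r = 0.954), Bsg for Apoe (0.969), Hnrnpk for Slc1a3 (0.927), 9930013L23Rik for Aqp4 (0.936), Dlc1 for Kcnj10 (0.966), Mapk14 for Vim (0.962), Ttyh1 for Sox9 (0.906), Tulp4 for Clu (0.961) and Cxadr for Dkk3 (0.930).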

How the data were processed

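RNA of whole retina was sequenced in 12 libraries as pairs of 101 bp reads, on 1 lane for F0 and 2 for F1. The authors trimmed reads (Trim Galore 0.2.6), aligned them (Bowtie 0.12.9) to strain or hybrid transcriptomes of NCBI37 and estimated expression with MMSEQ. The authors deposited count equivalents (a normalized signal, not integers), the natural log of expression (FPKM after exponentiation) with a posterior SD per value, and unique hits, which are a count. The MMDIFF table holds the authors' own model comparisons and 36 repeated columns, and was not used.

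Each allele column had been scaled to a full library, so F1 totals are means of 2 alleles, not sums as first planned. limma 3.58.1 (R 4.3.3) was fitted to log2(count equivalents + 1), for autosomal genes with 10 or more count equivalents in 3 libraries, or for alleles 10 or more allele-specific unique hits per F1 library on average, with the F1 library as a block, and Benjamini-Hochberg adjustment. edgeR 4.0.16 and DESeq2 1.42.0 on unique hits were alternatives. Fits were tested on simulated data. Replicates are pools of retinas, and p-values measure the spread between pools. The genes and lists were chosen with earlier results of these data known. The text names all 9 genes and, from the glial lists, genes called with a log2 difference of at least 1, otherwise the called gene of smallest adjusted p between strains. Outside this rule, Rlbp1 and Slc6a6 are named to check the tissue label, with Prdx6 and Hepacam beside them for the range. Gfap, Abcg1 and Lmna, and the astrocyte and bipolar cell markers, were named after their values were seen.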

Additional observations from a re-analysis of the deposited data

Results flagged for a closer look

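2 results were picked out because the difference between strains in F0 and between alleles in F1 was itself tested and passed. For Clu the difference of differences was -0.29, and for Dkk3 it was 0.30, on the log2 scale. No cause was tested, and the lanes and the mapping also differ between F0 and F1. The allelic log2 ratios over the 6 F1 libraries were searched for a library far from the rest in each of the 9 genes, and 0 of 9 sets held one.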

How the results depend on the processing

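The number of the 9 genes called between alleles (6), by parent of origin (0) and between crosses (0) stayed within 1.5 times under all alternatives run. Between strains it went from 5 to 1 without a filter on low values, where 3161 genes in all were called against 4887, and to 3 on the deposited log expression, and it was 3 to 5 with 1 library left out, 3 being without F0 C57BL/6J replicate 2 or 3 or F0 Cast/EiJ replicate 2. The trans count went from 2 to between 2 and 4 with 1 library left out, 4 being without F0 C57BL/6J replicate 1. The hybrid count went from 1 to 0 without a filter and on the deposited log expression, and was 0 to 1 with 1 library left out. Signs changed for values near 0 and for the trans component of Vim. Kcnj10 between alleles was 0.11 on the deposited log expression and 0.0427 with edgeR (TMM or RLE) and 0.0421 with DESeq2 on unique hits, and -0.10 to 0.0296 with 1 library left out. Slc1a3 between alleles was -0.0209 with edgeR (both scalings) and -0.0205 with DESeq2. The trans component of Vim was -0.25 in the main fit and 0.0901 on the deposited log expression. That of Slc1a3 was -0.0164 to 0.18 and that of Aqp4 -0.0405 to 0.0871 with 1 library left out. Dkk3 between strains was -0.12 to 0.0164 with 1 library left out. The trans call of Clu was lost with DESeq2 on unique hits (-0.24, adjusted p = 0.0561). The cause was not tested. Over all genes, parent-of-origin calls fell from 66 to 40 with edgeR and 38 with DESeq2, and cross calls from 12 to 4 with edgeR, or 19 without F1 B6xCast replicate 2.

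With the replicate block the strain count was 6, Sox9 being added (-0.34, adjusted p = 0.0469), the allelic count 6 and the trans count 2, and 6376 genes in all were called between strains against 4887. Correlations of same-numbered samples, as deviations from their group means, ran from -0.114 to 0.299. Among F0 C57BL/6J, F0 Cast/EiJ and F1 B6xCast they were 0.277 to 0.299 for replicate 1 and 0.116 to 0.149 for replicate 3. For replicate 2 they were 0.034 to 0.0539 there, and with F1 CastxB6 they were -0.114 to 0.0194. The main fits do not pair samples by number, and what same-numbered samples share was not tested. Kcnj10 and Sox9 had the fewest allele-specific unique hits of the 9, a mean of 334 and 333 per F1 library.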

Other observations

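Over the 12 libraries the 9 genes did not move as 1 group. Of 36 pairs, 22 had a positive Pearson r of log2(FPKM + 0.1) and 14 a negative one, with a median of 0.114. Glul and Vim were the most alike (r = 0.837), and Aqp4 and Clu the most opposed (-0.698). Glul also went with Apoe (0.824) and Clu (0.784), while Aqp4 went with Kcnj10 (0.657). The libraries share strain groups and replicate levels, so these values describe the 12 libraries and carry no test.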
